A study of Brassica rapa subsp. pekinensis with 8 samples.

Results

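The vernalization response of line 4004, an early-bolting inbred line of Chinese cabbage (Brassica rapa subsp. pekinensis), was described from 1 library at 0D Ver (day 0) and 1 library at 35D Ver (after 35 days of vernalization). Genes were taken as members where the mean normalized read count over these 2 libraries was at least 50, which 23226 of 38008 genes reached. The choice used the level and not the difference between the days. It was a fine line, since 48 members had a mean of exactly 50 and 44 genes had a mean of 49.5. Just inside were Bra002069 (84 at day 0 and 16 at day 35) and Bra008997 (31 and 69), and just outside were Bra034100 (22 and 77) and Bra008316 (14 and 85).

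No deposited count lay below 1, and 676 genes stood at 1 in all 8 libraries, so that 1 was taken to have been added to every count, which no source used here states. On that reading a normalized read count of about 1 stands for no reads. Normalized read counts are printed as deposited, and read numbers and ratios are given after 1 was taken off. Ratios formed without this step differed by up to 0.41 on the log2 scale among the genes named, most in those with few reads. A value below is written as day 0 and then day 35, and the interval after a ratio is a 95% interval for counting error only. It treats each read as independent, which PCR copies are not, so that it may be too narrow even for that error.

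The series held 8 libraries of poly(A) RNA: 1 of line 4004 and 3 of the late-bolting inbred line 50 on each day. Seedlings of both lines were grown in a warm room with long days for about a week, and the 35D Ver plants then spent 35 days in a cold room with a shorter daily light period. No warm-grown plants of the same age were sequenced, so that cold, day length and plant age cannot be told apart. Both lines are unmodified, each sample pooled the shoots of several plants by the study's methods, and the labels name the tissue as leaf in vegetative growth. With 1 library of line 4004 per day, the differences within this line have a size and a counting interval but no test. Nothing in these 8 libraries measured how far 2 pools of line 4004 plants would lie apart. Further line 4004 libraries that the study used were not analysed here.

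Vernalization is the long exposure to cold after which many plants of temperate regions become able to flower. In Brassicaceae the cold turns down FLC, a MADS-box repressor of flowering, through chromatin proteins that include VIN3, and the loss of FLC permits the floral integrators SOC1 and FT. The same cold is known to call up acclimation proteins such as COR15 and the dehydrins, which protect membranes and enzymes, and to alter growth, the circadian clock and defence. Brassica rapa carries several copies of many Arabidopsis genes, so that each is given here by its Arabidopsis name and its own Bra number.

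The 2 line 4004 libraries held 22479258 counts at day 0 and 25291776 at day 35, within the range of all 8 libraries (18287387 to 27135881). In line 50 the libraries numbered 3 stood apart. Libraries 1 and 2 of that line differed at least 2-fold in 1.78% of genes at day 0 and in 0.641% at day 35, still more than counting noise (chi-square per degree of freedom 18.5 and 7.91), whereas library 3 differed from them in 28.0% to 39.8%. At day 0 line 4004 lay nearest to line 50 library 3, with 20.7% of genes at least 2-fold apart against 27.3% and 28.0% for libraries 1 and 2. At day 35 it lay nearest to libraries 1 and 2, with 15.8% and 15.6% against 24.6% for library 3. Its 2 libraries differed from each other in 12.4% of members, and both carry the number 3 in their labels. Comparisons of line 4004 with line 50 libraries 1 and 2 are thus also comparisons between library numbers. The part of such differences between libraries in the results was not tested, and values of all 3 line 50 libraries are therefore given beside those of line 4004.

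Of the 23226 members, 1152 (4.96%) were higher at day 35 by 2-fold or more and 1733 (7.46%) were lower by as much, and the median log2 ratio was 0.01. The counts of each gene list below are to be read against these 2 shares. The middle 50% of the members lay between -0.37 and 0.35. At least 4-fold were 248 higher and 430 lower, and at least 32-fold were 24 higher and 40 lower. Lower genes outnumbered higher ones most at low levels: among members with a mean of 50 to 200 the shares were 6.47% higher and 10.2% lower, and from a mean of 5000 upward they were 4.49% and 3.74%. The split depended on the scaling. With library totals in place of the authors' size factors all ratios moved by -0.15 to -0.14, and 859 members were higher and 2257 lower, so that the higher ones made up 27.6% of both in place of 39.9%. Among the 11097 members whose line 50 libraries of each day lay within 2-fold of one another, 350 (3.15%) were higher and 582 (5.24%) were lower.

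**Figure D1:**
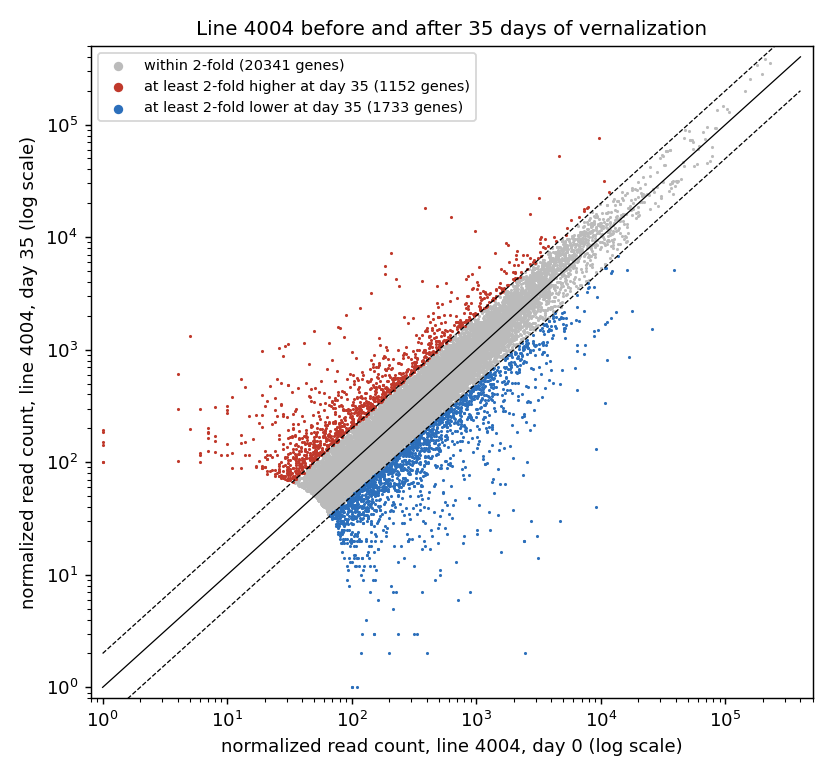
Normalized read counts of the 23226 members in the line 4004 libraries of day 0 (horizontal) and day 35 (vertical), both on log scales. The solid line marks equal levels and the dashed lines a 2-fold difference, with 1152 genes above and 1733 below them.

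The genes furthest up in line 4004 were nearly silent at day 0. The gene furthest up, Bra026701, had no description and went from 5 to 1322 normalized reads, 267-fold higher (95% counting interval 114 to 823), with 11, 6 and 6 in line 50 at day 0 and 1777, 1673 and 3163 at day 35. A LysM-domain protein gene (Bra013892), of a domain family that binds chitin-like sugars, read 4 and 608, a ratio of 204. CNGC12 (Bra000889), a cyclic nucleotide-gated channel linked to defence in Arabidopsis, read 4 and 298, a ratio of 100. In line 50 the levels of this gene split by library at day 35, at 2495, 1334 and 12.

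Other genes far up had few or no reads at day 0. SAG12 (Bra021998), a cysteine protease of senescing leaves, had no reads at day 0 and 187 normalized reads at day 35, at least 62.6-fold higher against a floor of 3 counts in a library. Its line 50 levels at day 35 were 162, 3 and 2, so that only library 1 held a level like that of line 4004. ASN1 (Bra018160), an asparagine synthetase, likewise had no reads at day 0 and 142 at day 35, at least 47.6-fold higher, beside 200, 39 and 43 in line 50 at day 35. A pectin methylesterase inhibitor gene (Bra000382) went from 1 read to 194 normalized reads, a ratio of 195 with a counting interval of 34.6 to 7730. The cation exchanger gene CHX17 (Bra013724) went from 1 read to 150, a ratio of 151 with an interval of 26.6 to 5980. An RCC1-type gene (Bra007177) read 13 and 551, and 2 genes without a description, Bra026022 and Bra013974, read 6 and 295 and 19 and 979.

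Cold acclimation genes included some of the largest ratios among the higher genes. Of 14 members described as cold-regulated or KIN proteins, 7 were at least 2-fold higher and none lower, with a median log2 ratio of 0.99 against 2.1, 2.34 and 1.21 in the line 50 pairs of libraries numbered 1, 2 and 3. COR15B, a chloroplast protein that shields membranes during freezing, had 385 normalized reads at day 0 and 18000 at day 35 in the copy Bra000263, 46.9-fold higher (42.4 to 51.9). In line 50 this copy read 148, 187 and 697 at day 0 and 12125, 12569 and 32324 at day 35. The line 4004 values lay within the range of the 3 line 50 libraries on both days. The second copy, Bra000265, read 625 and 15009 in line 4004, and its day 0 level was above the 62, 75 and 298 of line 50. KIN2 (Bra008661), a small hydrophilic cold protein, read 207 and 7188, 34.9-fold higher (30.4 to 40.3), beside 25, 14 and 232 at day 0 in line 50. Over the list the day 0 level in line 4004 exceeded the line 50 mean by a median log2 of 0.85. All 20 genes that the list caught, members or not, took 0.0419% of the counts of all genes at day 0 and 0.23% at day 35.

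Genes for raffinose sugars and for dehydrin and LEA proteins held higher members and no lower ones. All 4 members of the galactinol and raffinose list, enzymes that make the raffinose sugars found in cold-hardened leaves, were at least 2-fold higher, with a median log2 ratio of 1.47 beside 0.53, 0.77 and 0.19 in line 50. Galactinol synthase 3 (Bra031663), which makes the galactinol from which raffinose is built, read 487 and 3711, 7.63-fold higher (6.94 to 8.40). The line 50 libraries lay at 50, 52 and 108 at day 0 and at 3476, 3493 and 2900 at day 35. For this gene the lines were thus close after the cold and apart before it, with line 4004 higher. Over the list the order at day 0 was the reverse, with a median log2 of line 4004 over the line 50 mean of -1.01, and of -0.23 at day 35. The raffinose synthase SIP1 (Bra025579) read 200 and 591, and DIN10 (Bra020094) read 212 and 547. Of 19 dehydrins and LEA proteins, hydrophilic proteins of drying or freezing cells, 5 were at least 2-fold higher, 14 lay within 2-fold and none was lower. The median log2 ratio of this list was 0.78 beside 1.56, 1.62 and 1.28 in line 50. LEA3 (Bra033350) read 22 and 475, and in line 50 its day 0 levels of 344, 423 and 1337 were far above the line 4004 level. The list as a whole had the other order at day 0. Its median log2 of line 4004 over the line 50 mean was 0.89 at day 0 and 0.04 at day 35. A further LEA gene (Bra039946) read 368 and 4039, and Bra027957 read 9 and 117. The most abundant dehydrin (Bra013206) read 10896 and 16332, a ratio of 1.5.

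CBF4 (Bra028290), of the family of factors that switch on COR genes in Arabidopsis, lay the other way from its known targets. It had 317 normalized reads at day 0 and 3 at day 35 in line 4004, 108-fold lower (36.6 to 527). Line 50 had 1, 2 and 5 at day 0 and 6, 6 and 11 at day 35. The line 4004 library of day 0 was thus the one library of the 8 with a high level of this gene.

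Sugar metabolism was mixed by gene. Sucrose synthase 1, which splits sucrose for use in the cell, was higher in both copies named, at 1421 and 7209 in Bra002332 and at 1043 and 5383 in Bra006578. The line 50 libraries of day 35 held 8983, 7323 and 9539 of the first. BAM3 (Bra012676), a beta-amylase of the chloroplast that breaks down starch, read 11724 and 25233, while the cytosolic BAM5 (Bra038088) read 1375 and 53, 26.1-fold lower (19.9 to 35.0). Of 21 sucrose and trehalose genes 3 were higher (14.3%) and 3 lower (14.3%), and of 44 starch genes 4 were higher (9.09%) and 6 lower (13.6%). Among all members 4.96% were higher and 7.46% lower.

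**Figure D2:**
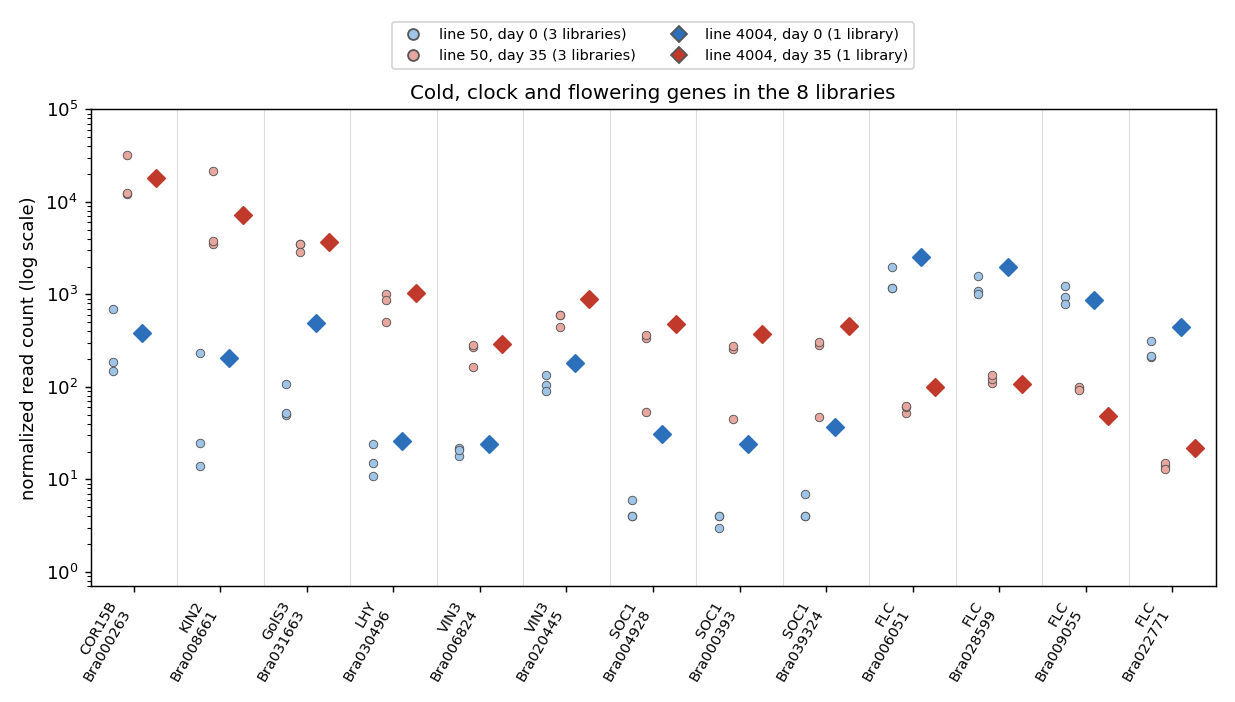
Normalized read counts (vertical, log scale) of cold, clock and flowering genes in the 8 libraries. Circles are the 3 line 50 libraries of each day and diamonds the single line 4004 libraries, in blue for day 0 and red for day 35. COR15B stood at 385 and 18000 in line 4004, and the 4 FLC copies lay below their day 0 level in every day 35 library.

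The 4 FLC copies were among the flowering genes with the largest differences. Bra006051, named BrFLC3 in the study, read 2539 at day 0 and 100 at day 35, 25.5-fold lower (20.9 to 31.4). The line 50 libraries held 1177, 1164 and 1977 and then 52, 60 and 62. Bra028599 (BrFLC2) read 1976 and 108, 18.4-fold lower, beside 1081, 1018 and 1572 and then 109, 123 and 136. Levels at day 35 were close in both lines for this copy. Bra009055 (BrFLC1) read 868 and 48, 18.5-fold lower, and its day 35 level was below the 96, 101 and 93 of line 50. Bra022771 read 439 and 22, 20.5-fold lower, beside 213, 214 and 314 and then 14, 15 and 13. In each copy every day 35 library of either line lay below every day 0 library.

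The copies share sequence, which matters for reads that were assigned to a gene set of coding sequences. The forward primers that the study listed for PCR of BrFLC1 and BrFLC2 are one and the same sequence, and those for the BrSOC1 copies share a run of 11 bases, shown in capitals. They are printed to show how alike the transcripts are. No source used here states how reads that matched more than 1 copy were counted, so that the division of reads among such copies is uncertain.
BrFLC1 and BrFLC2: TTGAGAACAAAAGTAGCCGACAAG
BrSOC1-1: ggcatACCAAGGATCGtgtcagc
BrSOC1-2: cacACCAAGGATCGagtcagcag
BrSOC1-3: cgcatACCAAGGATCGaatcagca

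VIN3, the plant homeodomain protein that cold induces and that acts on FLC chromatin, was higher in both copies. Bra020445 read 180 and 881, 4.91-fold higher (4.18 to 5.80), beside 136, 104 and 90 and then 602, 603 and 448 in line 50. Bra006824 read 24 and 292, 12.2-fold higher (8.05 to 19.4), beside 22, 18 and 21 and then 267, 282 and 165. The day 0 levels of the second copy were nearly alike in the 4 libraries. VRN1, a DNA-binding protein that keeps FLC repressed in Arabidopsis, read 1642 and 444 in the copy Bra001729, 3.70-fold lower, and less than 2-fold lower in the copies Bra022376 (660 and 456) and Bra037544 (572 and 399).

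All 3 SOC1 copies, floral integrators of the MADS-box family, were more than 12-fold higher. BrSOC1-1 (Bra004928) read 31 and 484, 16.3-fold higher (11.3 to 24.4), while line 50 read 6, 4 and 4 at day 0 and 337, 361 and 53 at day 35. BrSOC1-2 (Bra000393) read 24 and 371, 16.3-fold higher (10.7 to 26), beside 4, 4 and 3 and then 259, 277 and 45. BrSOC1-3 (Bra039324) read 37 and 461, 12.9-fold higher (9.19 to 18.6), beside 7, 4 and 4 and then 282, 306 and 47. In each copy both line 4004 values were above every line 50 library of the same day, and line 50 library 3 stood far below libraries 1 and 2 at day 35.

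Below the threshold of 50, 2 florigen-type genes had at most 1 read at day 0. FT (Bra022475) had no reads at day 0 and 32 normalized reads at day 35, at least 10.5-fold higher. TSF (Bra004117), the near relative of FT, had 1 read and then 38 normalized reads, a ratio of 37.4 with an interval of 6.32 to 1520. Line 50 stayed at 3 or fewer in each of its 6 libraries for both genes. The floral repressor TEM1 was lower, at 3343 and 1151 in Bra011002 and at 2217 and 1018 in Bra024735. The line 50 libraries of day 0 held 759, 831 and 712 of the first copy, so that the line 4004 library of day 0 was the highest of the 8.

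Further flowering regulators went both ways. SVP, a repressor that acts beside FLC, read 1441 and 1839 in Bra038511 and 907 and 1392 in Bra030228. The promoter AGL24 (Bra019221) read 339 and 641. FD, the bZIP partner of FT, read 112 and 35 in Bra010504, MAF4 (Bra024351), a relative of FLC, read 120 and 41, and SPL3 (Bra021880), a target of an age-regulated microRNA, read 77 and 34. Of 63 annotated flowering regulators 37 were members, with 5 at least 2-fold higher and 10 lower and a median log2 ratio of -0.26. The meristem identity gene LFY stood at 2 or fewer normalized reads in both line 4004 libraries in each of its 2 copies.

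Clock genes moved in both directions around a higher median. Of 37 members 14 were at least 2-fold higher and 4 lower, with a median log2 ratio of 0.48 beside 0.93, 0.85 and 0.53 in line 50. LHY, a morning-phased MYB factor of the core loop, was highest in ratio, at 26 and 1046 in Bra030496, 42.2-fold higher (28.5 to 65.6), and at 50 and 1459 in Bra033291, 29.4-fold higher. In line 50 the first copy read 24, 15 and 11 and then 1001, 866 and 507. LUX (Bra018204) of the evening complex read 102 and 597, and GIGANTEA (Bra024536) read 2883 and 6278. The study's methods state that samples were taken at the same time of the light and dark cycle, but the light period differed between the rooms, and what part of these differences lies in the phase of the cycle was not tested. Outside the naming rule, after their values were seen, CCA1 (Bra004503) is named at 400 and 1460 and TOC1 (APRR1) at 861 and 4472 in Bra012964 and 1277 and 3160 in Bra035933. Both morning and evening genes of the loop were therefore among the higher ones. Of the 4 lower members 3 were TCP-family factors, which bind some clock promoters in Arabidopsis, with Bra005984 at 1665 and 525.

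B-box proteins, zinc-finger factors of light signalling and flowering, followed with 8 of 40 members higher and 2 lower. CONSTANS-like 1 (Bra023541) read 21 and 347, 17.5-fold higher, beside 5, 1 and 8 and then 387, 347 and 425 in line 50. CONSTANS-like 5 (Bra002709) read 698 and 2900, and CONSTANS-like 9 (Bra001264) 79 and 313. The most abundant, CONSTANS-like 4 (Bra009805), read 6042 and 6172.

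Pathogenesis-related proteins and chitinases, secreted proteins of induced defence, held the largest count of higher genes in any list. Of 60 members 28 were at least 2-fold higher and 4 lower, with a median log2 ratio of 0.87 beside 0.24, 0.29 and -0.16 in line 50. A thaumatin-type gene (Bra025730) read 31 and 1118, 36.4-fold higher (25.5 to 53.8), beside 16, 16 and 57 and then 836, 642 and 500. The beta-1,3-glucanase BG2 (Bra007315) read 8 and 170, beside 132, 225 and 45 in line 50 at day 35. PR4, a hevein-like protein, split by copy: Bra001122 read 25 and 551, 23.2-fold higher, and Bra001121 read 1051 and 154, 6.87-fold lower. A basic chitinase (Bra001454) read 790 and 71, and in line 50 it was high at day 0 in library 3 alone, at 12, 13 and 146.

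Glutathione S-transferases, NAC factors and ABC transporters held members in both directions. Among glutathione S-transferases, which conjugate toxic compounds, GSTF3 (Bra000875) read 90 and 2038, 22.9-fold higher (18.5 to 28.6), and GSTF2 (Bra000876) 117 and 2328. Line 50 started higher, at 207, 369 and 435 of the first. The list as a whole had 9 of 63 members higher and 13 lower, the lowest being GSTF12 (Bra008570), which carries anthocyanins to the vacuole, at 250 and 18. Among NAC factors 15 of 74 were higher (20.3%) and 4 lower (5.41%), beside 4.96% and 7.46% of all members. Their median log2 ratio was only 0.05, beside 1.32, 0.94 and 0.39 in line 50. At day 0 line 4004 exceeded the line 50 mean by a median log2 of 1.11 over this list. The higher ones were led by 3 copies of ANAC042, known in Arabidopsis for its part in stress tolerance and longevity. These read 10 and 319 in Bra004736, 15 and 255 in Bra000282 and 30 and 251 in Bra037743. In line 50 at day 35 the first of these read 215, 178 and 48. Of 74 ABC transporters 11 were higher and 3 lower, with PDR7 (Bra026156) at 2129 and 7600.

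Cell wall and lipid-transfer lists held large differences in both directions. Extensins, the hydroxyproline-rich proteins that lock the wall, had 14 of 43 members higher and 6 lower. The extensin-like Bra037731 read 185 and 4676, 25.4-fold higher (21.9 to 29.6), but line 50 already held 2994, 2871 and 5999 at day 0 and reached 14272, 17307 and 20390. Bra000292 (144 and 3169) and Bra004749 (225 and 4270) had the same order of the lines. Of 44 lipid-transfer and albumin-type genes 13 were higher and 12 lower. Bra031329 went from 9749 to 76652, 7.86-fold higher (7.70 to 8.03), beside 7164, 7065 and 17925 and then 51470, 66001 and 163587 in line 50, and LTP4 (Bra020322) went from 1712 to 64, 27.0-fold lower. Among 136 pectin-modifying enzymes 18 were higher and 13 lower, with PME3 (Bra027350) at 3297 and 10128.

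The nitrate, phosphate and iron lists held more higher than lower members, which the ammonium and sulfate lists did not. Of 22 members for nitrate uptake and assimilation 6 were at least 2-fold higher and none lower, with a median log2 ratio of 0.41. The high-affinity transporter NRT2.5 (Bra016747) read 47 and 451, 9.67-fold higher (7.15 to 13.4), beside 2, 6 and 9 and then 41, 49 and 16 in line 50. Nitrate reductase 1, which makes nitrite from nitrate, read 159 and 571 in Bra008333, 3.60-fold higher (3.02 to 4.31). Line 50 held 2557, 2073 and 2391 of this copy at day 0 and 3233, 2880 and 2642 at day 35, so that line 4004 was below every line 50 library on both days. The copy Bra003670 read 188 and 658 and had the same order. Named after their values were seen, the third copy Bra015656 read 499 and 1540 and the nitrite reductase copies read 458 and 856 in Bra015227 and 634 and 947 in Bra039844. Of 22 ammonium and glutamine genes 2 were higher and 3 lower, with a median of -0.22, and none of 20 sulfate genes passed 2-fold, with a median of -0.36. The ammonium transporters AMT1;1 (Bra040801) and AMT1;2 (Bra037397) read 206 and 674 and 85 and 297, while AMT2 (Bra005125) read 2334 and 906.

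Of 62 phosphate starvation genes 15 were higher and 8 lower. The transporter PHT1;4 was higher in 3 consecutively numbered entries, at 265 and 1941 in Bra005071, 310 and 1923 in Bra005070 and 187 and 1060 in Bra005069. Line 50 at day 35 held 2384, 2391 and 773 of the first, so that library 3 was again lower than the others. An acid phosphatase-like gene (Bra010332) read 6584 and 3499 in line 4004, beside 7 or fewer normalized reads in every line 50 library. Of 34 iron and metal genes 8 were higher and 3 lower. Nicotianamine synthase 1, which makes the metal carrier nicotianamine, read 20 and 111 in Bra009407 and 32 and 167 in Bra005831, and the metallothionein MT3 (Bra027254) read 7703 and 3286.

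**Figure D3:**
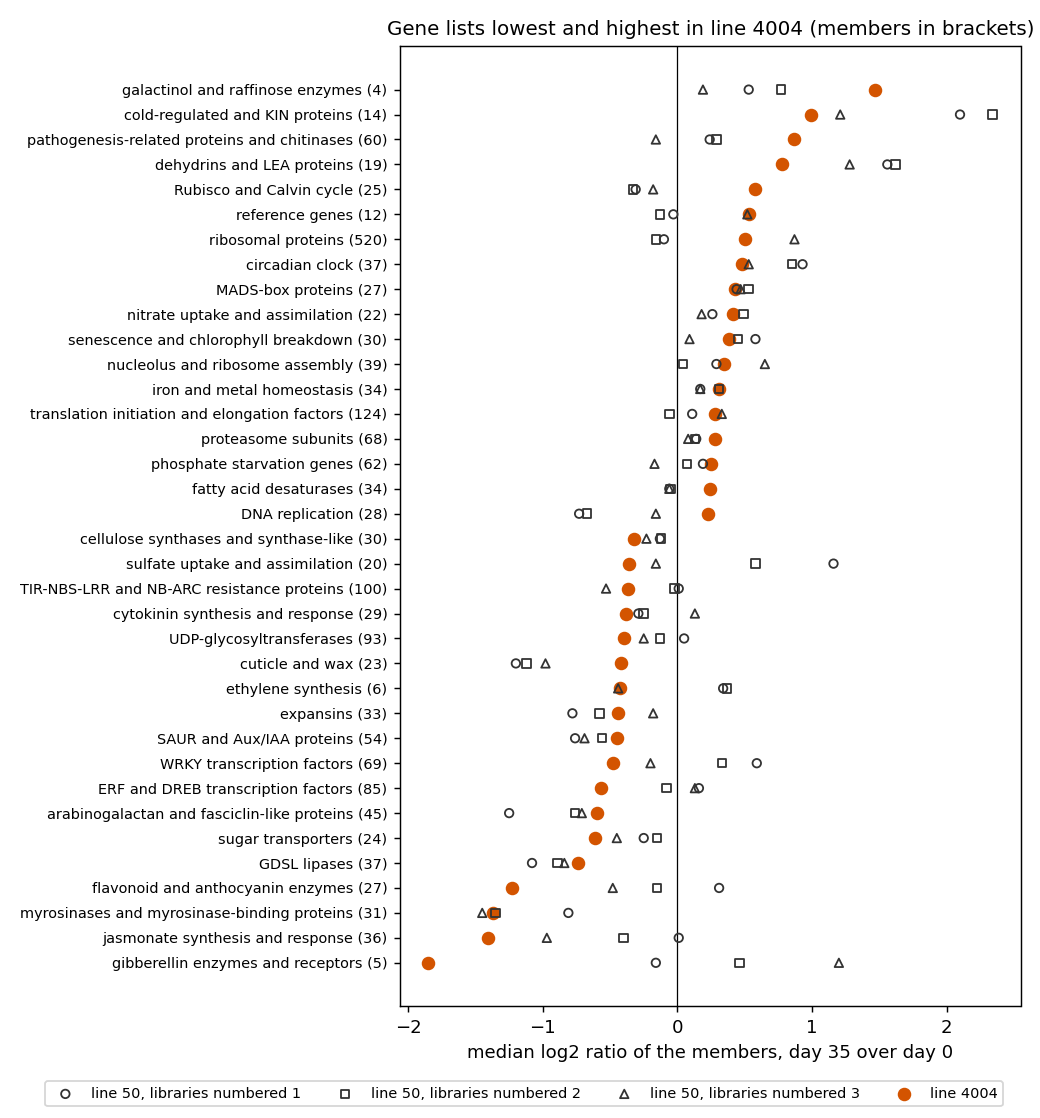
Median log2 ratio of day 35 over day 0 (horizontal) for the 36 gene lists lowest or highest in line 4004, with the number of members in brackets. Filled points are line 4004 and open symbols the line 50 pairs of libraries 1, 2 and 3. Galactinol and raffinose enzymes lay highest at 1.47 and the 5 gibberellin genes lowest at -1.85, a median that is -0.92 at a minimum mean of 10.

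Translation genes were a little higher nearly throughout. Of 520 ribosomal protein genes, organellar ones included, 439 were above 0, with a median log2 ratio of 0.50. All 559 genes of the list, members or not, took 5.51% of the counts of all genes at day 0 and 7.34% at day 35. Few of the 520 members passed 2-fold, at 16 higher and 1 lower, the latter by its description also a glutathione S-transferase. The line 50 pairs did not share one direction, at -0.10, -0.16 and 0.87. The 12 reference genes, chosen as genes often used for scaling, had a median of 0.53 in line 4004 and -0.03, -0.13 and 0.52 in line 50. With library totals the ribosomal median moves by the shift given above and stays above 0. Translation factors (median 0.28 over 124 members) and nucleolar genes (0.35 over 39) lay on the same side, with the elongation factor Bra030707 at 35637 and 59971.

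Photosynthesis genes had medians on both sides of 0. All 25 members of Rubisco and the Calvin cycle, which fix carbon, were above 0 with a median of 0.58, none of them past 2-fold, while line 50 lay at -0.31, -0.33 and -0.18. The most abundant, a Rubisco small subunit gene (Bra028174), read 96120 and 147577, against 178357, 155449 and 312821 and then 109862, 120471 and 278007 in line 50. Line 4004 was below every line 50 library at day 0 for this gene. The 110 photosystem and light-harvesting genes had a median of -0.11 beside -0.95, -0.57 and -0.48 in line 50, with 3 at least 2-fold higher and 3 lower. ELIP, a protein that shields chlorophyll under excess light, read 822 and 1747 in Bra001886 and 498 and 1194 in Bra033911, and line 50 held only 12, 12 and 35 of the first at day 0. PSBQ (Bra013517) of photosystem II read 4109 and 1338, and a photosystem II subunit of low mass (Bra018907) read 2614 and 465.

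Jasmonate genes gave the largest share of lower genes among the lists of more than 10 members. Jasmonate is a lipid-derived hormone of wounding and of defence against insects, made from linolenic acid by lipoxygenase, allene oxide synthase and allene oxide cyclase, and its response is held back by JAZ repressors. Of 36 members 24 were at least 2-fold lower and none higher, and the median log2 ratio was -1.41 beside 0.01, -0.40 and -0.97 in line 50. All 48 genes of the list, members or not, took 0.566% of the counts of all genes at day 0 and 0.104% at day 35.

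At the top of the pathway, LOX2 (Bra003526), the chloroplast lipoxygenase, read 38422 and 5142, 7.47-fold lower (7.26 to 7.69). Line 50 held 31943, 22244 and 79430 and then 5977, 6778 and 10349, on both sides of line 4004 at day 0. The second copy (Bra022535) read 17816 and 2210. VSP2 (Bra020470), a vegetative storage protein and a marker of the jasmonate response, went from 2448 normalized reads to 1 read, a ratio of 2510 with a counting interval of 450 to 99200. Line 50 held 192, 407 and 397 at day 0 and at most 2 at day 35, so that the direction was shared and the day 0 level was higher in line 4004. ORA47 (Bra003780), a factor that switches on jasmonate synthesis genes, read 403 and then 2 reads, a ratio of 206 (56.7 to 1710), beside 35, 27 and 44 and then 4, 6 and 7.

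Between these ends of the pathway, named after their values were seen, allene oxide synthase (Bra035320) read 1073 and 452 and allene oxide cyclase 3 read 269 and 68 in Bra017350 and 83 and 25 in Bra025160. The JAZ genes Bra016604 and Bra030986, both JAZ5, read 352 and 55 and 497 and 119. MYC2 (Bra010178), the bHLH factor that JAZ proteins hold back, read 3454 and 1111, beside 1114, 1026 and 2605 at day 0 in line 50. Over the list the day 0 level in line 4004 exceeded the line 50 mean by a median log2 of 0.98, and at day 35 by 0.28.

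Kunitz protease inhibitors, which block the gut enzymes of insects, held some of the largest differences in counts. Bra008025 read 25830 and 1541, 16.8-fold lower (15.9 to 17.7), beside 1092, 1991 and 4785 and then 160, 120 and 494 in line 50. Bra016073 read 9126 and 40, 234-fold lower (172 to 328), and in line 50 day 0 was high in library 3 alone, at 134, 149 and 1312. The list of 42 protease inhibitors had 5 higher (11.9%) and 9 lower (21.4%), with a median of 0.16. Among all members these shares were 4.96% and 7.46%. All 104 genes of the list, members or not, took 0.335% of the counts of all genes at day 0 and 0.123% at day 35. The cystatin CYS1 (Bra008912) went the other way, from 1573 to 3533.

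The glucosinolate breakdown list had medians below 0 in both lines. Myrosinases cut glucosinolates, the mustard-oil precursors of cabbages, and their binding and specifier proteins steer the products. Of 31 members 20 were at least 2-fold lower and 1 higher, with a median of -1.37 beside -0.81, -1.35 and -1.45 in line 50. The epithiospecifier gene ESP (Bra037958) read 6387 and 441, 14.5-fold lower (13.2 to 16), beside 745, 1107 and 1866 and then 139, 146 and 282. Myrosinase-binding protein 2 (Bra014308) read 2309 and 252. The myrosinase TGG1 itself had 11 member copies that went both ways. At least 2-fold lower were 5 of them, such as Bra032343 at 9469 and 1504 and Bra020523 at 7410 and 1098, and 1 was at least 2-fold higher, Bra004012 at 974 and 2127. The copy Bra039823, less than 2-fold higher, read 4883 and 9282. Bra039823 had the same values as the next numbered entry in all 8 libraries, so that the reads of this pair cannot be told apart.

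**Figure D4:**
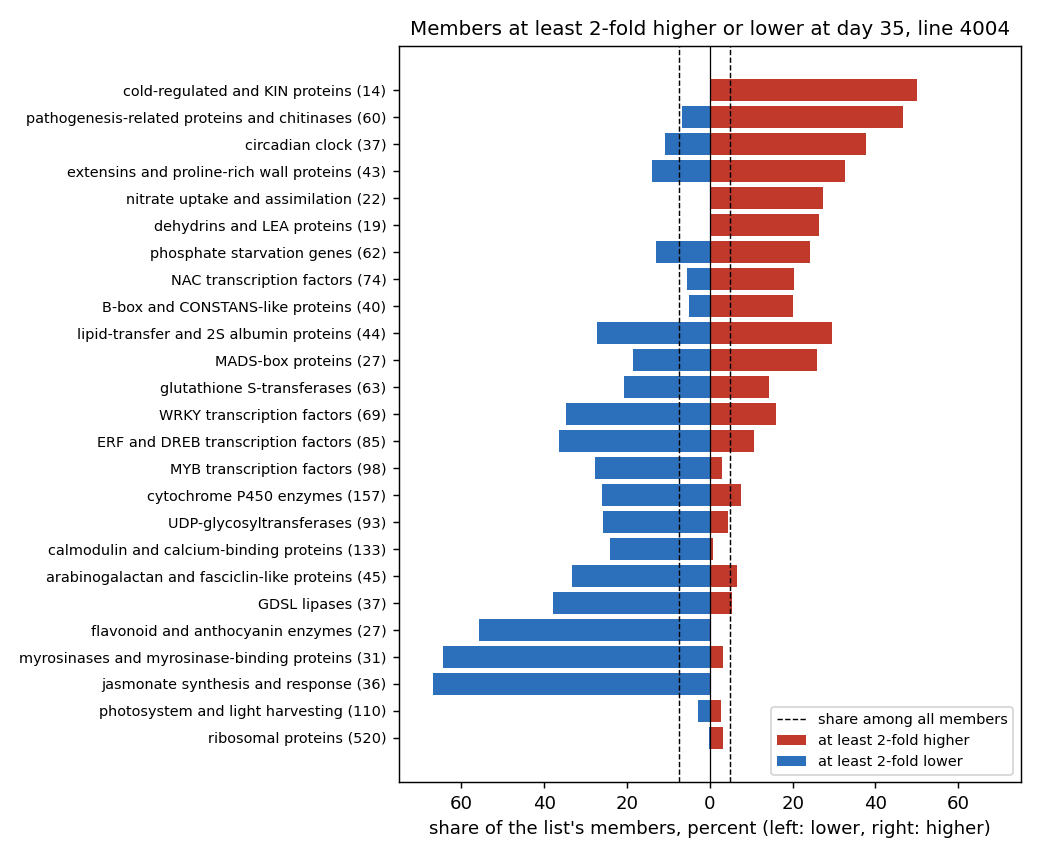
Share of the members of 25 lists that were at least 2-fold higher (red, to the right) or at least 2-fold lower (blue, to the left) at day 35 in line 4004, in percent, with the number of members in brackets. Dashed lines mark the shares among all members, 4.96% and 7.46%.

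The flavonoid list had a median below 0 in line 4004 and medians on both sides of 0 in line 50. Of 27 members 15 were at least 2-fold lower and none higher, with a median of -1.23 beside 0.31, -0.15 and -0.48, and the difference between the lines was not tested for the list. Chalcone synthase (Bra023441), the entry enzyme of the pathway, read 3205 and 1123, 2.85-fold lower (2.67 to 3.06), beside 358, 405 and 1399 and then 445, 319 and 898. Dihydroflavonol reductase (DFR, Bra027457), on the branch to anthocyanins, read 333 and 3, 113-fold lower (38.5 to 553), and line 50 stayed at 10 or fewer in every library. The anthocyanin glucosyltransferase UF3GT read 152 and then 2 reads in Bra003021, a ratio of 77.7 (21.2 to 648), and 151 and 2 reads in Bra035004, beside 5 or fewer in line 50. These late genes were thus high only in the line 4004 library of day 0. Over the list that library exceeded the line 50 mean by a median log2 of 1.40.

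The ERF, WRKY and calcium-sensor lists held more lower than higher members. Of 85 ERF and DREB factors 31 were lower and 9 higher, with a median of -0.57 beside 0.16, -0.08 and 0.13 in line 50, and ERF5 (Bra024953) read 346 and 22. Of 69 WRKY factors 24 were lower and 11 higher, with a median of -0.48 beside 0.59, 0.33 and -0.20. WRKY40, a repressor induced by wounding and pathogens in Arabidopsis, was lower in all 3 copies named, at 537 and 54 in Bra008435, 408 and 48 in Bra003588 and 611 and 95 in Bra035148. In line 50 each of the 3 copies was higher at day 35 in every pair of libraries, as with 17, 31 and 15 and then 114, 107 and 36 of the first. WRKY51 had the reverse order in line 4004, at 66 and 377 in Bra031900.

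Of 133 calmodulin and calcium-binding genes 32 were lower and 1 was higher. The calmodulin-like CML38 (Bra015727) read 494 and 19, 26.6-fold lower (16.9 to 44.6), beside 6, 27 and 3 and then 21, 18 and 3 in line 50, and CML37 (Bra027981) read 207 and 8. TCH4, a xyloglucan endotransglucosylase named for its response to touch, read 3046 and 22 in Bra002719, 142-fold lower (93.6 to 227), beside 367, 591 and 110 and then 332, 54 and 28. The entries on either side of it by number, Bra002718 and Bra002720, had identical values, 2393 and 20. The zinc-finger gene RHL41 (Bra006691), identical in all 8 libraries to Bra006692, read 1179 and 97. In these genes too the highest of the 8 libraries was that of line 4004 at day 0. Over all ERF and WRKY members that library exceeded the line 50 mean by median log2 values of 0.91 and 1.05.

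**Figure D5:**
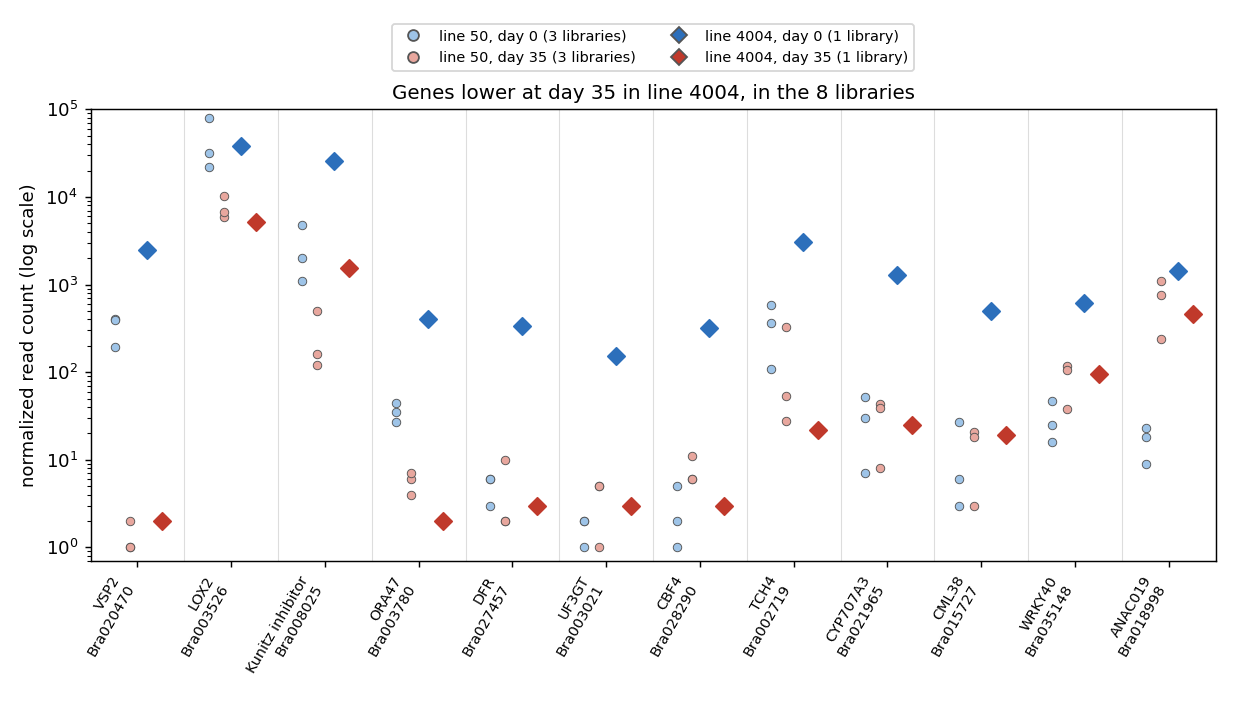
Normalized read counts (vertical, log scale) of genes lower at day 35 in line 4004, in the 8 libraries, with circles for the 3 line 50 libraries of each day and diamonds for the single line 4004 libraries, blue for day 0 and red for day 35. For CBF4, DFR, UF3GT and CYP707A3 the line 4004 library of day 0 lay above all others.

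Hormone turnover genes held few members but large ratios. Gibberellins promote bolting, and GA2OX2 inactivates them. Of 5 gibberellin members 4 were lower and none higher, with a median log2 ratio of -1.85 beside -0.16, 0.46 and 1.20 in line 50. At a minimum mean of 10 the median of this short list was -0.92. GA2OX2 read 290 and 79 in Bra030187, 259 and 72 in Bra032354 and 155 and 43 in Bra010802, which is 3.66-fold, 3.62-fold and 3.6-fold lower. Line 50 held 53, 30 and 29 of the first copy at day 0, so that line 4004 stood above it by a median log2 of 2.50 over the list. CYP707A3, a P450 that degrades abscisic acid, was lower in 3 copies, at 1286 and 25 in Bra021965, 52.8-fold lower (35.6 to 81.8), at 1012 and 23 in Bra025083 and at 1499 and 34 in Bra027602. Line 50 lay between 3 and 53 in all 6 libraries for these copies. The ethylene synthesis gene ACS6 (Bra035236) read 6623 and 1813.

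Enzymes of secondary metabolism and MYB factors had shares of lower genes above the 7.46% of all members. Of 157 P450 genes 41 were lower and 12 higher, of 93 UDP-glycosyltransferases 24 were lower and 4 higher, and of 98 MYB factors 27 were lower and 3 higher. MYB77 (Bra029990), an auxin-response factor, read 587 and 23, 26.2-fold lower (17.3 to 41.6), beside 137, 153 and 177 and then 16, 14 and 49. MYB28 (Bra029311), a regulator of glucosinolate synthesis, read 1968 and 4945, and in line 50 it was lower at day 35 (1193, 1333 and 1218 and then 658, 805 and 929). Among the genes furthest down were also CSLA10 (Bra012702), a mannan synthase, at 3137 and 14, 248-fold lower (145 to 465), and 2 alkaline phosphatase-like genes at 4666 and 30 (Bra010320) and 893 and 7 (Bra011130). An acyltransferase gene of the HXXXD type (Bra006412) read 709 and 6. Line 50 had the same direction in all 3 pairs for these 4 genes, as with 1241, 1248 and 2109 and then 3, 2 and 8 of CSLA10.

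Lists of wall, lipase, auxin and aquaporin genes had medians below 0 in both lines. Of 45 arabinogalactan proteins 15 were lower and 3 higher, with a median of -0.60 beside -1.25, -0.76 and -0.71 in line 50, and of 37 GDSL lipases 14 were lower and 2 higher, with a median of -0.74 beside -1.08, -0.89 and -0.84. Lists of cell division did not share this in line 4004, where DNA replication had a median of 0.23, tubulins and kinesins 0.2 and cyclins 0.01. In line 50 they were below 0 in every pair. The values were -0.73, -0.67 and -0.16 for DNA replication, -0.28, -0.28 and -0.13 for tubulins and kinesins, and -0.19, -0.10 and -0.06 for cyclins. At a minimum mean of 500 the line 4004 median of DNA replication was -0.46. Expansins, which loosen the wall, had 11 of 33 lower and 4 higher, with a median of -0.44 beside -0.78, -0.58 and -0.18 in line 50. EXPA16 (Bra007170) read 313 and 67, and expansin A1 (Bra024686) read 91 and 362. Auxin-response proteins of the SAUR and Aux/IAA type had 11 of 54 lower and 2 higher. Aquaporins, the water channels, had 8 of 39 lower and 1 higher, with PIP1;4 (Bra019307) at 1240 and 361 beside 2853, 2592 and 3532 and then 410, 404 and 554 in line 50. The peroxidase RCI3, known from cold in Arabidopsis, read 228 and 7 in Bra015404, beside 500, 597 and 349 and then 15, 9 and 8.

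Some lists lay near the shares of all members, 4.96% higher and 7.46% lower, and others held fewer genes past 2-fold. Receptor-like kinases had 12 of 320 members higher (3.75%) and 21 lower (6.56%), and NBS-LRR resistance genes 4 of 100 higher and 8 lower. Mitochondrial respiration and autophagy lay below these shares, with none of 69 and none of 19 past 2-fold in either direction. Heat shock proteins and chaperones had none of 142 higher and 13 lower (9.15%), with a median of 0.03. Proteasome subunits had 2 of 68 higher (2.94%) and none lower.

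The labelled tissue was checked with markers. The 14 leaf mesophyll markers were all members and took 4.27% of the counts of all genes at day 0 and 6.18% at day 35. None of 10 root markers was a member and each had 2 or fewer normalized reads in line 4004. Of 16 shoot meristem markers 1 was a member, CLV1 (Bra015812) at 470 and 530, and the meristem factor STM (Bra027050) had 1 read and then 24 normalized reads, beside 59, 52 and 66 at day 35 in line 50. KNAT1 (Bra000638) went likewise from 1 read to 26, beside 81, 67 and 115. Of 18 floral organ markers 3 were members, all copies of SEP3, and these were nearly level at 120 and 100, 206 and 186, and 147 and 136. Over these 3 the line 4004 level exceeded the line 50 mean by a median log2 of 2.51 at day 0 and 2.42 at day 35. The 17 members among dividing-cell markers had a median log2 ratio of 0.41 in line 4004 and -0.98, -0.84 and -0.15 in line 50. In bulk shoots, a change in the share of a cell type and a change in RNA per cell cannot be told apart.

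Where a copy of a gene passed 2-fold, the other copies mostly lay on the same side of 0, though often within 2-fold. The members traced to 13969 Arabidopsis loci, of which 6332 had at least 2 member copies. The gap between the highest and lowest log2 ratio of a locus had a median of 0.21. Of 438 such loci with a copy at least 2-fold higher, 162 had all copies past 2-fold and 359 had all copies above 0. Of 672 with a copy at least 2-fold lower the numbers were 274 and 585. How reads that matched several copies were counted is not stated, and their part in this was not tested. At 21 loci copies passed 2-fold in both directions, such as PR4 above and, named after its values were seen, the actin nucleator formin 8, at 118 and 2 in Bra016233 and 38 and 191 in Bra024640. In 117 members the values were identical to those of another member in all 8 libraries, so that these are not separate measurements.

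Set beside line 50, members that were 2-fold higher or lower in all 3 pairs of that line numbered 826 (3.56%) and 771 (3.32%). Of the 1152 higher members of line 4004, 441 were among the former, which is 38.3% of the line 4004 list and 53.4% of the line 50 list, and 5 were 2-fold lower in all 3 pairs. Of the 1733 lower members, 447 were shared, 25.8% and 58.0% of the lists, and 30 were 2-fold higher in all pairs. With line 50 libraries 1 and 2 alone the shared members were 626 of 1650 higher and 550 of 1355 lower, which is 54.3% and 31.7% of the line 4004 lists, and 9 and 76 were opposite. Fewer pairs make the condition easier to meet, and other choices of pairs were not run.

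Whether the response of line 4004 differed from that of line 50 could be tested only by assuming that a line 4004 library varies like a line 50 replicate. The edgeR quasi-likelihood test of the difference, over 31191 genes and with 4 residual degrees of freedom that all came from line 50, called no gene higher (0%) and none lower (0%) at an adjusted p under 0.05 and a 2-fold difference. At an unadjusted p under 0.05 there were 956 genes, and the smallest adjusted p was 0.952. DESeq2 called 10 genes higher and 59 lower. With line 50 libraries 1 and 2 only, edgeR called 714 higher and 1298 lower, so that the count rested on whether the libraries numbered 3 were used. That fit set line 4004 libraries numbered 3 against line 50 libraries of other numbers, so that line and library number cannot be told apart. Its spread came only from line 50 libraries 1 and 2, which differed least from each other. HAI1 (Bra002594), a phosphatase of abscisic acid signalling, was among the 10 genes with the smallest p in the fit of all libraries. It read 115 and 75 in line 4004, beside 4, 3 and 4 and then 163, 77 and 151 in line 50. The common biological coefficient of variation was 0.398 with all libraries.

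The 10 genes with the smallest p included CBF4 and both UF3GT copies, described above, and none of the FLC or SOC1 copies. A legume lectin gene (Bra021101) read 38 and 165 in line 4004, beside 2660, 2353 and 1467 and then 203, 260 and 285 in line 50. HSPRO2 (Bra000158), a gene of basal resistance in Arabidopsis, read 1138 and 242, beside 88, 116 and 102 and then 345, 269 and 292. In both genes the lines went opposite ways and the levels of day 35 lay closer together than those of day 0. The edgeR adjusted p was 0.952 for each, so that neither passed the test.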

How the data were processed

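Poly(A) RNA of shoots was sequenced as paired reads, which the authors trimmed with SolexaQA and aligned with Bowtie2 at default settings to a Brassica rapa coding-sequence gene set. The deposited raw counts per gene are whole numbers, none below 1, and were taken to have 1 added by the authors throughout. The deposited normalized read counts, taken as a score here because they are rounded to whole numbers, are the authors' counts divided by DESeq size factors over a larger set of libraries. Further line 4004 libraries of that set were not analysed here. The counting program is not named in the paper, the labels or the headers. Columns of log2 fold changes hold the authors' own comparisons and were not used.

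Each log2 ratio of line 4004 was formed from counts less 1, divided by the authors' size factors, with libraries under 3 counts set at 3. A 2-fold ratio was the threshold. A fold against a library without reads is a lower bound from 3 counts. With 1 to 3 reads the plain ratio is given. Intervals at 95% are exact conditional (Clopper-Pearson) intervals of 2 counts and cover counting error only. Gene lists were drawn from the words of the Arabidopsis descriptions in the table (75 lists) or from Arabidopsis loci (8 lists), so that a list holds whatever its words catch. Members and lists were chosen with earlier results of these data known. The text names the 12 genes furthest up and down, up to 3 genes each way and the most abundant gene per list, the 10 smallest p of the difference test, the flowering regulators and genes at the threshold, and says so where a gene was added after its values were seen.

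The response of line 4004 less that of line 50 was tested with edgeR's quasi-likelihood test on the counts as deposited of all 8 libraries, with TMM factors and edgeR's default filter on low counts (Benjamini-Hochberg adjusted p under 0.05 and 2-fold). The residual degrees of freedom came from line 50 alone. The labels do not say what sets the replicates apart, while the study's methods call them independent biological replicates. The p-values measure the spread between these samples, which may in part be technical, and that part was not tested. The line 50 libraries were paired by their numbers. Deviations of same-numbered libraries from their group means correlated at 0.446, 0.615 and 0.695 across genes. Library 1 correlated with library 2 of the other day at 0.473 and 0.563, and library 3 stood apart from both. The correlations therefore cannot show which of libraries 1 and 2 belong together. The alternatives were library totals, TMM factors, counts as deposited, other minimum levels, no filter, DESeq2, a replicate block and leaving out line 50 libraries. Computations used Python 3.11.15, numpy 2.4.6, pandas 2.3.3, scipy 1.17.1 and matplotlib 3.10.9, and R 4.3.3 with edgeR 4.0.16, limma 3.58.1 and DESeq2 1.42.0. The fit was tested on simulated data. Coordinates and gene sequences were not used here.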

Additional observations from a re-analysis of the deposited data

Results flagged for a closer look

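In 8 named genes the line 4004 ratio and all 3 line 50 pairs passed 2-fold in opposite directions. None passed edgeR's test of the difference, in which the smallest adjusted p among them was 0.952, and with 1 line 4004 library per day no test within the line exists. The WRKY40 copies had log2 ratios of -3.35 (Bra008435), -3.12 (Bra003588) and -2.69 (Bra035148) in line 4004, against 1.23 to 2.8, 1.31 to 2.41 and 1.22 to 2.3 over the line 50 pairs. HSPRO2 (Bra000158) had -2.24 against 1.22 to 1.98. ANAC019 (Bra018998), a NAC factor of abscisic acid and jasmonate signalling in Arabidopsis, had -1.63 against 3.87 to 6.51, from 1440 and 465 normalized reads in line 4004 beside 23, 9 and 18 and then 1094, 754 and 237 in line 50. A MYB gene (Bra028369) had -1.77 against 1.3 to 2.74, at low levels in line 50. A legume lectin gene (Bra021101) had 2.13 against -3.71 to -2.37, and a mannose-binding lectin gene (Bra035070) had 1.57 against -2.1 to -1.79, from 106 and 315 beside 482, 409 and 358 and then 120, 119 and 84. In the 6 genes lower in line 4004, its day 0 library stood above every line 50 library of day 0, and in the 2 lectin genes it stood below them.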

How the results depend on the processing

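Members at least 2-fold higher and lower numbered 1980 and 2703 at a minimum mean of 10, and 336 and 493 at a minimum of 500, where the study set its threshold for differential expression, since fewer genes enter. With the condition, chosen after seeing the data, that line 50 libraries of each day lie within 2-fold, they were 350 and 582. For the difference between the lines, DESeq2 called 69 genes (10 higher and 59 lower), and the fit without the libraries numbered 3, also chosen after seeing the data, called 2012 (714 and 1298). In edgeR the counts were 0 with the replicate block, with RLE size factors and without a filter (2969, 953 and 1011 genes at an unadjusted p under 0.05), and from 0 to 0 on leaving out each line 50 library in turn (631 to 2113). The fit without the libraries numbered 3 took that number out of line 50 only, since both line 4004 libraries carry it. No other result was fitted with a block. Neither line 4004 library could be left out, since each is the only one of its day. TMM factors and counts as deposited kept the sign of all 82 list medians and 460 named genes. Library totals turned it for 14 lists, such as NAC, B-box and heat shock genes, and 12 genes, none with a log2 value further from 0 than 0.12. List medians moved at a minimum of 500 for 6 lists, such as WRKY factors at -1.13 and cold-regulated genes at 2.21, and at a minimum of 10 for 2. At low levels, the 6 members under 3 counts at day 0 and the 11 at day 35 have ratios that depth limits.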
